A study of Mus musculus with 2 samples.

Results

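The genes of the proteasome, the protease complex that degrades ubiquitin-tagged proteins, were read from arrays of *Gde5* skKO and WT gastrocnemius (GAS) muscle. They were taken as every non-control probe whose gene name on the array begins with Psma, Psmb, Psmc, Psmd, Psme, Psmf or Psmg. The rule found 69 probes of 44 genes, out of 41112 probes and 27570 genes with values on both arrays. It found no name beginning with Psmg, and it took in Psmc3ip, a factor of meiotic recombination that only shares the prefix. Both groups were male C57BL/6 mice of 15 weeks on a normal diet, and the series names 5 mice. The WT group is labelled wild-type. In the *Gde5* skKO group, per the study's methods, Cre under the human skeletal actin promoter (HSA-Cre) deletes a floxed *Gde5* in muscle fibres, so other cells of the muscle keep the gene. For the study's force, glucose tolerance and fasting experiments the controls were *Gde5* flox/flox littermates. Whether the WT mice of the arrays carried the floxed alleles, whether RNA was pooled, whether both arrays hold the same RNA, and whether the mice were fasted or given glucose is not given in the labels. The paper describes arrays after glucose and after fasting, and which of these the arrays here hold was not settled. If both arrays hold the same RNA, every SD over arrays and every p-value here, limma's included, measures technical spread only.

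The 2 arrays compared both genotypes directly in 2 colours with the dyes swapped, so each gene has 2 ratios, given here as log2 of *Gde5* skKO over WT for array 1 and array 2. A gene was represented by its brightest probe. It counted as measured when each array had that probe well above background in 1 channel or more, and as called when the p-value of Agilent Feature Extraction, which speaks for the spots and not for the mice, was under 0.05 on both arrays in the same direction. Of the 44 genes 43 were measured, 42 of them in both channels on both arrays, and no probe was saturated. Psma8, the testis form of an alpha subunit, was not well above background in any channel. The median Feature Extraction error of a proteasome gene was 0.20 on each array, and the smallest log2 ratio to pass the p-value among genes with signal in both channels was 0.34 on array 1 and 0.35 on array 2. Among genes with signal in both channels, no ratio under 1.26-fold on array 1 or 1.27-fold on array 2 passed. Of the 4 probes of *Gde5* itself, listed as Prei4, 3 were called lower with mean log2 ratios from -3.18 to -2.93, and 1 was not, at -0.05 and -0.47. All 7 muscle fibre markers were measured and none was called, with a median mean log2 ratio of 0.01.

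The proteasome cuts proteins inside a barrel, the 20S core, built from outer rings of alpha subunits and inner rings of beta subunits, of which Psmb5, Psmb6 and Psmb7 carry the active sites. The 19S particle caps the barrel, binds ubiquitin chains, removes them, and unfolds and feeds the substrate through a ring of ATPases, while other activators (Psme1 to Psme4) open the barrel without ubiquitin. Interferon replaces the catalytic subunits by Psmb8, Psmb9 and Psmb10, which make up the immunoproteasome and favour peptides for MHC class I. In skeletal muscle the ubiquitin-proteasome pathway is the main route by which myofibrillar proteins are lost in atrophy.

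The bases before the start of 3 genes are shown because the results turn on them: Psme4, the only gene called, and the pair of Psmb5 and its interferon-inducible counterpart Psmb8. The sequences are those of RefSeq on GRCm38.p6, 250 bases up to the annotated start, Psme4 at chr11:30771525-30771774 on the plus strand, Psmb5 at chr14:54617996-54618245 on the minus strand and Psmb8 at chr17:34197945-34198194 on the plus strand. Capitals mark a match to any of 4 motifs on either strand.
Psme4: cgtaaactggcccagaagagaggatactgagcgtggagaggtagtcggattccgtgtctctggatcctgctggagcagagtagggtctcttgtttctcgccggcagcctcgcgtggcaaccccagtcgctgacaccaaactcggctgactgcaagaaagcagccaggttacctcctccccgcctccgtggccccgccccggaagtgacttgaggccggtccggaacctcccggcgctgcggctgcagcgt
Psmb5: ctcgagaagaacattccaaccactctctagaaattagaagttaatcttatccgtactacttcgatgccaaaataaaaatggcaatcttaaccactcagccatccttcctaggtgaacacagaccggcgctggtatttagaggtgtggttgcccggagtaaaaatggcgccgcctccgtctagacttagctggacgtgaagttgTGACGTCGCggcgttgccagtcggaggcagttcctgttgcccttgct
Psmb8: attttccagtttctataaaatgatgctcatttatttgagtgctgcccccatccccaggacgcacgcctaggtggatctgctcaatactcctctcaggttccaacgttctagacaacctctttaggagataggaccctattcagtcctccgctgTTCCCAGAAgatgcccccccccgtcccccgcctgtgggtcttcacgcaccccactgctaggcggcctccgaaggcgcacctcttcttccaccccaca
The motifs were the core of the antioxidant response element TGACNNNGC, through which Nfe2l1 and Nfe2l2 act, the CCAAT box, the STAT site TTCNNNGAA and the interferon-stimulated response element (GAAA, 2 bases of any kind, GAAA). No match overlapped another in the promoters searched. The Psmb5 window held the antioxidant core TGACGTCGC, which begins 47 bases before the start. The Psmb8 window held a STAT match, TTCCCAGAA, beginning 97 bases before the start, and the Psme4 window held none of the 4. Promoters were found for 36 of the 43 genes without Psmc3ip, 39 promoters in all. The antioxidant core lay in 12.8% of them (Psmb5, Psmb6, Psmc6, Psmd12 and Psmd9) against 10.2% of 32851 promoters. The CCAAT box lay in 33.3% against 33.8%, and the interferon-stimulated element in 7.69% (Psmb3, Psmd4 and Psmd9) against 2.98%. The STAT site lay in the Psmb8 promoter alone of the 39, and in 7.02% of all promoters. A match describes the letters and is not a binding site.

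Psme4 was the only proteasome gene that passed the threshold. Of the 43 measured genes 0 were called higher and 1 lower, which is 2.33%, beside 3.32% of all 13571 genes measured (1.58% higher and 1.73% lower). In limma's moderated test, an unadjusted p under 0.05 was met by 2 higher genes (Psma4 and Psmd4), beside 4.24% of all genes, and 2 lower genes (Psma3 and Psme4), beside 4.27%. The methods' t-test, run unpaired on the channel values, so that it ignored which channels shared an array, gave 1 higher (Psmc3), beside 4.54%. It gave 1 lower (Psme4), beside 4.21%. After Benjamini-Hochberg adjustment over all genes in limma there was 1 lower gene, Psme4, beside 0.516% of all genes, and 0 higher, beside 0.287%. The median log2 ratio of the proteasome genes was 0.05 on array 1 and 0.08 on array 2, where all genes had 0.01 and 0.02. Without regard to the p-value, 21 proteasome genes had ratios above 0 on both arrays and 7 below 0 on both, or 48.8% and 16.3%, where all genes had 29.2% and 25.3%. The mean over both arrays lay within 0.25 of 0 for 37 genes, 86.0%, against 75.3% of all genes. Among genes with signal in both channels the shares were closer, at 85.7% and 78.3%.

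**Figure D1:**
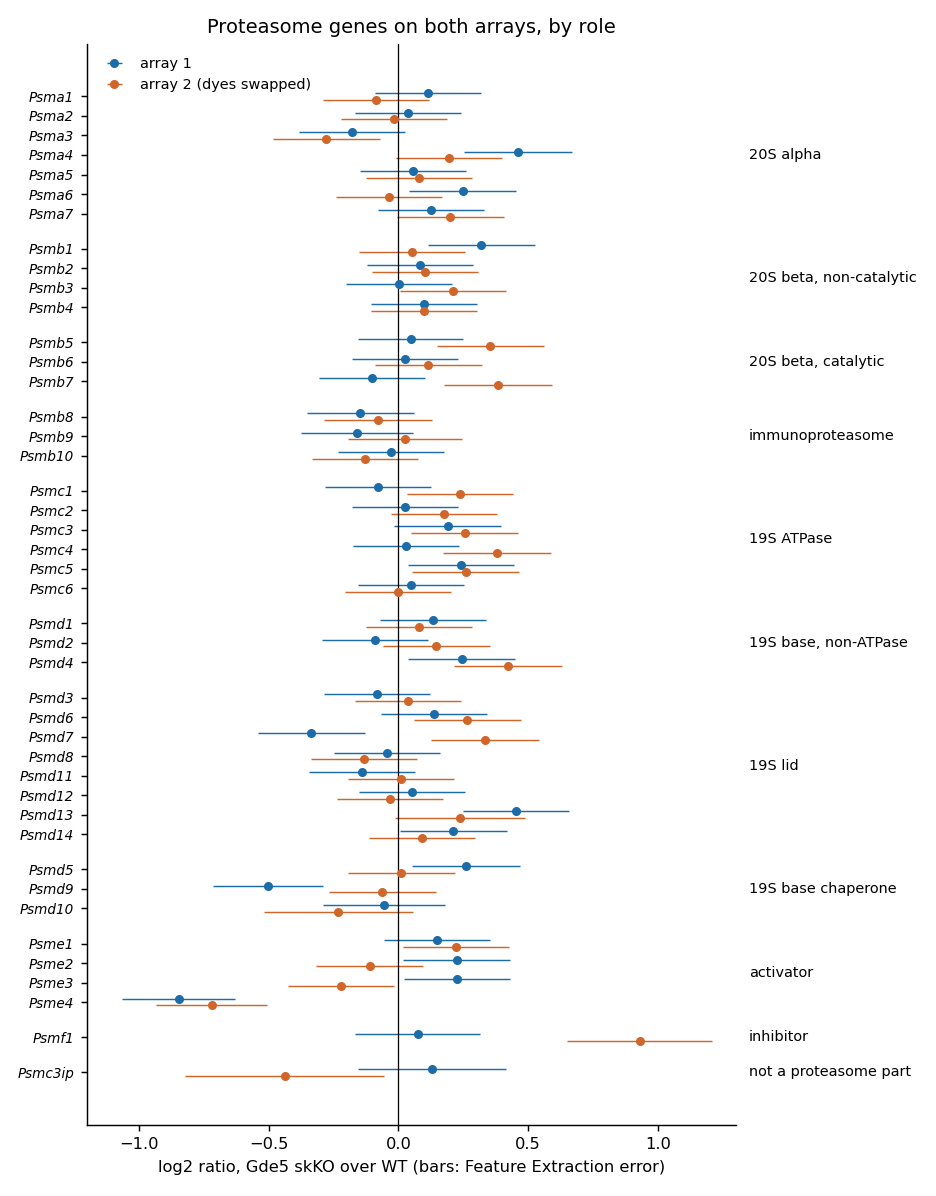
Log2 ratio of *Gde5* skKO over WT (x axis) of each measured gene of the rule (y axis), grouped by role, with a point for array 1 in blue and array 2 in orange and bars for the Feature Extraction error. Psme4 lies to the left of 0 on both arrays, at -0.85 and -0.72, and no other gene is as far from 0 in the same direction on both.

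Other genes passed the p-value on 1 array only, with a ratio of the same direction but short of the threshold on the other. On array 1 the p-value was under 0.05 for Psma4, Psmd13, Psmd9 and Psme4, which is 4 of 43 beside 12.1% of all genes. On array 2 it was under 0.05 for Psmd4, Psmf1 and Psme4, 3 of 43 beside 13.9%. Across the 43 genes, which are not independent replicates and share both hybridizations, Pearson's r between the arrays was 0.37 and Spearman's rho 0.21, and without Psme4 they were 0.12 and 0.15. Over all measured genes r was -0.08 and rho 0.09.

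**Figure D2:**
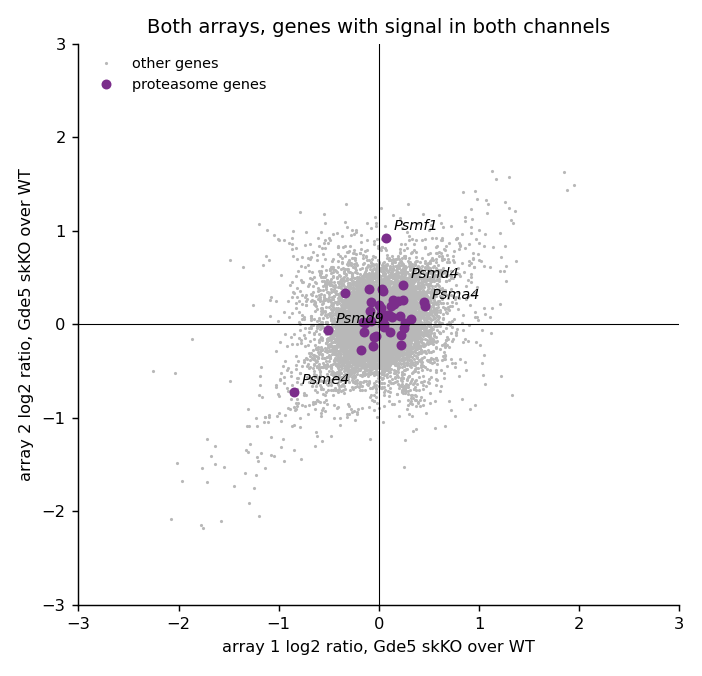
Log2 ratio of *Gde5* skKO over WT on array 1 (x axis) and array 2 (y axis) for the 12321 genes with signal in both channels, in grey, with the 42 proteasome genes among them in purple. Psme4 lies at the lower left, at -0.85 and -0.72. By its brightest probe, Psmf1 stands apart on array 2, at 0.93, but not on array 1, at 0.07. A second measured probe of Psmf1 had 0.59 on array 1 and 0.04 on array 2.

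Psme4 encodes PA200, an activator that opens the 20S core and is known for the degradation of acetylated histones. It was the only proteasome gene that fell by the call on both arrays. Its brightest probe (chr11:30780168-30780227 of mm8, plus strand) had a signal of 43835 in WT and 24388 in *Gde5* skKO on array 1, and 38819 and 23578 on array 2. The knockout channel was lower on both arrays, whichever dye it carried, and neither knockout signal reached a WT signal. The log2 ratios were -0.85 and -0.72 with Feature Extraction p-values of 0.000106 and 0.000792, a mean of -0.78 ± 0.09 (SD, n = 2 arrays), or 1.72-fold lower. In limma the mean was -0.74, with an adjusted p of 0.0228 over all genes. A mean this low was not rare: 91 of 12321 genes with signal in both channels were lower, and Psme4 was in place 89 of the 220 lower calls among them.

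The other measured probes of Psme4 moved the same way. The probe at chr11:30776868-30778426, whose coordinates span more than a probe's length, had WT and *Gde5* skKO signals of 2439 and 1621 on array 1 and of 2344 and 1743 on array 2, and log2 ratios of -0.59 and -0.43. The probe at chr11:30721054-30723098, farthest toward the 5′ end and with a span of the same kind, had 417 and 303, then 452 and 324, and ratios of -0.46 and -0.48. Both were called lower, so 3 of the 4 probes were called. The remaining probe (chr11:30739112-30739171), made to a cDNA clone and not to the RefSeq transcript, was not well above background in enough channels to be measured. Its ratios of -0.46 and -1.66 were 0.06 and -0.08 in limma, so no direction is given for it. Among 842 genes with 3 or more probes with signal, all such probes were called lower in 2, Psme4 and the calcineurin subunit Ppp3r1, a count made after the values of Psme4 were seen. The size of the decrease differed by probe, from a mean of -0.47 to -0.78. In limma the probe farthest toward the 5′ end had smaller ratios, of -0.26 and -0.35. The probe at chr11:30776868-30778426 had -0.46 and -0.40 there, and the brightest -0.82 and -0.66.

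**Figure D3:**
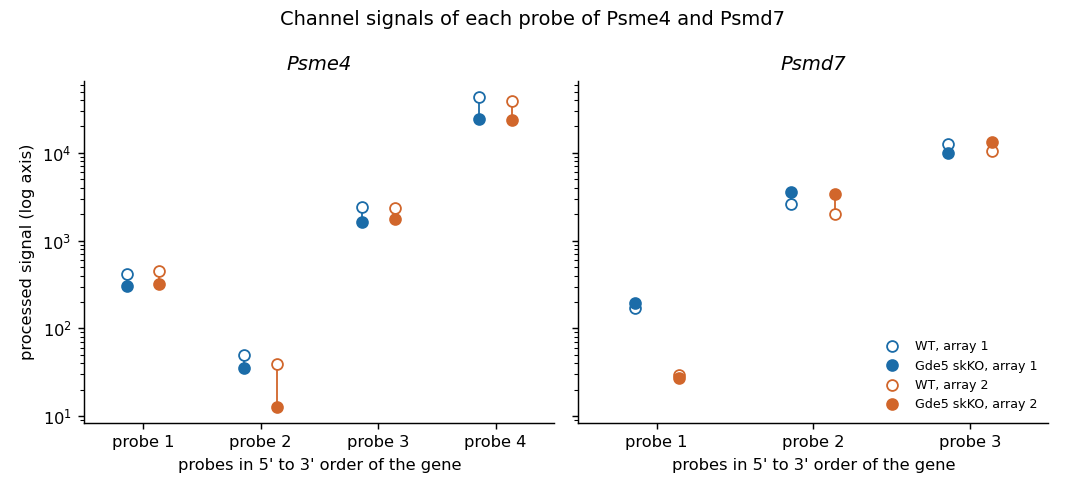
Processed signal (log axis) of each probe of Psme4 and Psmd7, in the order of the gene from 5′ to 3′ (x axis), in WT (open) and *Gde5* skKO (filled), array 1 in blue and array 2 in orange. The 3 brighter probes of Psme4 are lower in *Gde5* skKO on both arrays, while the probes of Psmd7 differ in direction.

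The other activators did not pass the threshold. Psme1 and Psme2 form PA28 alpha-beta, which interferon induces and which opens the core for peptides of MHC class I. Psme1 had a WT signal of 7540 and a *Gde5* skKO signal of 8354 on array 1, and 8128 and 9481 on array 2, with log2 ratios of 0.15 and 0.22. Psme2, its partner in the ring, had ratios of 0.22 and -0.11. Psme3, the nuclear PA28 gamma, had 0.23 and -0.22. The activators thus spread from -0.78 for Psme4 to 0.18 for Psme1 in their means. Psmf1 encodes PI31, first described as an inhibitor of the core. Its signals were 130 in WT and 137 in *Gde5* skKO on array 1, and 94.5 and 180 on array 2, with ratios of 0.07 and 0.93. On this probe, the brightest of Psmf1, only array 2 separated the genotypes, and the mean of 0.50 came down to 0.16 with normexp and loess in limma. A second measured probe of Psmf1 had ratios of 0.59 on array 1 and 0.04 on array 2, past the p-value on array 1 alone. In limma its array 1 ratio was 0.18. The probes thus differ in which array separated the genotypes.

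Among the 14 constitutive subunits of the 20S core none was called. Ratios were above 0 on both arrays for 9 of them and below 0 on both for 1, and the median mean log2 ratio was 0.10. The 7 alpha subunits, which form the gated outer rings, had a median of 0.07. Psma4 was highest, with WT and *Gde5* skKO signals of 6168 and 8479 on array 1 and 10829 and 12404 on array 2, and ratios of 0.46 and 0.20. Both knockout channels were higher, but only array 1 passed the p-value. Psma3 was lowest, with signals of 11608 and 10262 on array 1, 6780 and 5593 on array 2, and ratios of -0.18 and -0.28. It was the only constitutive core gene with a ratio below 0 on both arrays. The 4 structural beta subunits all had ratios above 0 on both arrays, with a median of 0.10. By their brightest probes Psmb1 was highest at 0.32 and 0.05. Over all probes Psmb3 was highest, with a mean of 0.21 beside 0.19 for Psmb1.

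The inducible catalytic subunits were compared with the constitutive subunits they replace, to see whether both kinds moved together. Psmb5, the chymotrypsin-like subunit, had WT signals of 8408 and 8697 and *Gde5* skKO signals of 8683 and 11110, with ratios of 0.05 and 0.35. Psmb8, which takes its place, had WT signals of 664 and 623 and *Gde5* skKO signals of 599.7 and 590.02, with ratios of -0.15 and -0.08, and its dimmer second probe had 0.13 and -0.16. Neither was called, and the difference of the ratios, inducible minus constitutive, was -0.19 ± 0.29 (combined Feature Extraction error) on array 1 and -0.43 ± 0.29 on array 2. Psmb6, the caspase-like subunit, had WT signals of 18550.4 and 17910 and *Gde5* skKO signals of 18865 and 19407, with ratios of 0.02 and 0.12. Psmb9, its counterpart, had WT signals of 261 and 253 and *Gde5* skKO signals of 234 and 258, with ratios of -0.16 and 0.03. That pair differed by -0.18 ± 0.30 and -0.09 ± 0.30. Psmb7, the trypsin-like subunit, had WT signals of 7844 and 6957 and *Gde5* skKO signals of 7313 and 9078, with ratios of -0.10 and 0.38. Psmb10, its counterpart, had WT signals of 1555 and 1472 and *Gde5* skKO signals of 1525 and 1346, with ratios of -0.03 and -0.13. That pair differed by 0.07 ± 0.29 and -0.51 ± 0.29. The largest of these differences was 1.76 times its combined error, so no pair was separated from 0 by 2 times its error.

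**Figure D4:**
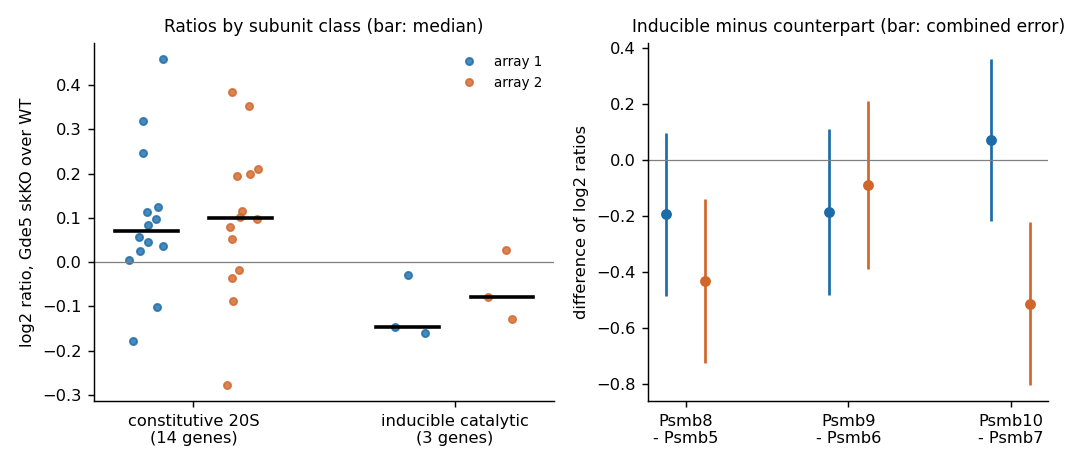
Left, log2 ratios of *Gde5* skKO over WT (y axis) of the 14 constitutive core subunits and the 3 inducible catalytic subunits (x axis), per array, with bars at the medians. Right, the difference of log2 ratios of each inducible subunit minus its counterpart, per array, with the combined Feature Extraction error as bars; 5 of the 6 differences are below 0, the largest at -0.51.

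By Feature Extraction the 3 inducible subunits as a class lay below the constitutive core. Their median log2 ratio was -0.15 on array 1 and -0.08 on array 2, against 0.07 and 0.10 for the 14 constitutive subunits, a difference of -0.22 and -0.18. On array 1, 12 of the 14 constitutive subunits were above the highest inducible one, and on array 2, 10 of 14 were, so the classes overlapped on both. With limma's normexp and loess the difference was -0.05 on array 1 and -0.24 on array 2, so its size on array 1 depended on the processing. The difference was not tested, since the arrays may hold the same RNA. Genes that load MHC class I or induce it, many of which respond to interferon as the immunoproteasome does, were read from a list. Of 13 on the arrays 11 were measured and none was called, with 5 above 0 on both arrays, 2 below 0 on both, and a median of the means of 0.09, which was 0.01 in limma. Irf1 had ratios of 0.12 and 0.06 and B2m of 0.05 and 0.14. The 2 below 0 on both were Pdia3, at -0.38 and -0.27, and Tapbp, at -0.08 and -0.25. Over all probes, measured or not, the mean of Irf1 was -0.26 and that of B2m 0.17. The peptide transporters Tap1 and Tap2 were not measured. White blood cells carry much of the immunoproteasome of a tissue, and in whole muscle fewer such cells and less RNA per cell cannot be told apart. Of 11 leukocyte markers 9 were measured and none was called, with 6 below 0 on both arrays, 1 above 0 on both and a median of -0.17, which was -0.06 in limma. Their summed signal went from 11563 in WT to 10734 in *Gde5* skKO on array 1 and from 11744 to 9638 on array 2. Lyz2 was the most abundant, Cd3e and Ptprc were measured, and Cd68 and Itgam were not measured. The part of white blood cells in the inducible subunits was not tested.

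No gene of the 19S particle was called. Of its 20 measured genes, chaperones included, 10 had ratios above 0 on both arrays and 3 below 0 on both, with a median of 0.09. The 6 ATPases of the base, which unfold the substrate, had a median of 0.15. By their brightest probes Psmc5 was the highest of them at 0.24 and 0.26, and Psmc6 the lowest at 0.05 and -0.00. The second probe of Psmc5 had 0.31 and -0.13. Over all probes the mean of Psmc5 was 0.17, below Psmc3 and Psmc4 at 0.22, and Psmc2 was the lowest at 0.05. Of the other base subunits, Psmd4, a receptor for ubiquitin chains, had WT and *Gde5* skKO signals of 7532 and 8919 on array 1 and of 7961 and 10668 on array 2. Its ratios were 0.24 and 0.42, past the p-value on array 2 alone, with a limma mean of 0.29 at an adjusted p of 0.411. The 8 lid subunits, the part that holds the deubiquitinating activity, had a median of 0.00. Psmd13 was the highest, with WT and *Gde5* skKO signals of 179 and 246, then 159 and 187, and ratios of 0.45 and 0.24 that came down to a mean of 0.06 in limma. Psmd8 was the lowest, at -0.04 and -0.13.

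Psmd7, a lid subunit that pairs with the deubiquitinase Psmd14, had the widest spread among its probes with signal in both channels. Its brightest probe (chr8:110469631-110469690 of mm8, minus strand) had WT and *Gde5* skKO signals of 12595 and 9984 on array 1 and of 10622 and 13383 on array 2, and so ratios of -0.34 and 0.33 that cancelled. On both arrays the Cy3 channel of this spot was the brighter. A second probe of the same transcript, at chr8:110470345-110470404, had signals of 2601 and 3581, then 1997 and 3406, ratios of 0.46 and 0.77 and p-values of 0.0269 and 0.000366, and was called higher. Its array 1 ratio was 0.02 with limma's normexp and loess and 0.03 with loess and no background correction, so that the rise on array 1 was not seen there. The means of these probes lay 0.62 apart, where the median over the 15 genes with several probes with signal in both channels was 0.16. Counted by probe, 1 of the 62 measured probes was called higher (this one) and 3 lower (all of Psme4), beside 1.49% and 1.58% of all probes. No direction is given for Psmd7, since its probes disagree.

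The chaperones that assemble the ATPase ring were Psmd5, Psmd9 and Psmd10. Psmd9 (p27) had WT and *Gde5* skKO signals of 576 and 407 on array 1 and of 578 and 553 on array 2, with ratios of -0.50 and -0.06, past the p-value on array 1 alone, and the mean over both of its probes was -0.10. Psmd10 (gankyrin) had ratios of -0.06 and -0.23, and Psmd5 of 0.26 and 0.01. None was called.

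Genes that work with the proteasome were read from lists written from general knowledge. Of 12 measured partners outside the prefix, such as the assembly factor Pomp and the deubiquitinases Usp14 and Uchl5, none was called and the median of the means was -0.01. Of 9 regulators of proteasome genes none was called, with a median of -0.10. Nfe2l1, the transcription factor that raises subunit genes when the proteasome is inhibited, had ratios of -0.20 and -0.10, and Nfe2l2 had -0.29 and 0.31. Of 9 measured ubiquitin ligases and conjugating enzymes known from muscle atrophy none was called. Fbxo32 (atrogin-1) had ratios of -0.14 and 0.16, and Trim63 (MuRF1) of -0.26 and -0.16.

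Markers of cell types other than muscle fibres also passed the threshold. Of 5 measured fat markers 4 were called lower, Adipoq at -0.97 and -1.03, and by their means Cfd at -0.90, Retn at -0.83 and Plin1 at -0.69, while Fabp4, the most abundant, had 0.05, and their summed signal went from 42869 in WT to 42765 in *Gde5* skKO on array 1 and from 44210 to 40516 on array 2. The median of their means, -0.83, was -0.34 in limma. Lep was not measured. Of 4 endothelial markers Kdr was called higher at 0.42, with 2 of the 4 above 0 on both arrays, 2 below 0 on both, and a median of the means of 0.06. Cdh5 had ratios of -0.07 and -0.12 and Tek of -0.20 and -0.25, and neither was called. Over all probes, measured or not, the mean was 0.20 for Kdr, -0.46 for Cdh5 and -0.13 for Tek. Of the liver markers 2 of 5 were measured, of which Mup1 was called lower at -0.97 by its brightest probe. Its mean over all probes, measured or not, was -0.44. Of 3 blood markers none was called, with a median of -0.23. Their part in the lower signal of Psme4 was not tested.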

How the data were processed

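Gene expression of GAS muscle was measured on 2 dye-swapped two-colour Agilent arrays, each holding both genotypes, on 1 slide in 1 scan, so slide and scan cannot separate them. The authors extracted the images with Feature Extraction 9.5.3.1, and the deposited files give a log10 ratio of Cy5 over Cy3 per spot after background subtraction and dye normalization. They also hold a p-value of the software's error model, deposited per spot. The authors' files further give the intensity of each channel and of its local background. The deposited table of the whole series holds that log10 ratio too, and was an alternative.

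Ratios were expressed as log2 of *Gde5* skKO over WT, with the dyes taken from the labels, and averaged over spots of a probe. Of 43379 spots outside the controls, 164 on array 1 and 200 on array 2 had outlier marks and were left out, with 11 on array 1 whose local background exceeded their signal by over 10 units, a choice made after values were seen, and none was of a proteasome gene. The share of spots well above background was 53.2% for *Gde5* skKO and 45.6% for WT on array 1, and 44.6% and 47.4% on array 2. Precision is limited by there being 2 arrays. Probes were named through RefSeq accessions (24375), symbols (6301) or synonyms (2426), and 8071 kept the array's name. Probe coordinates are from the array's mm8 annotation, and no annotation of mm8 was used here, so exon and intron were not looked up.

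The members and lists were chosen with earlier results of these data known. Genes were named by rule: the inducible subunits, Psme1, Psme2 and the constitutive counterparts, every called proteasome gene, and the 3 highest and 3 lowest means in the core, the 19S particle and the rest; others described were chosen after their values were seen. The list of genes of ubiquitin delivery and some single genes of other lists are not reported here. Alternatives were limma 3.58.1 under R 4.3.3 (normexp with an offset of 50, loess, moderated test), no background correction, the series table, thresholds of 0.01 and 1.5-fold, filters, all probes, the methods' t-test of log2 channel values, the dye direction and each array alone. Counting probes, taking the probe brightest in the WT channel, and the inducible difference per array under the other background settings, were added after seeing the data. Software was Python 3.11.15 with pandas 2.3.3, numpy 2.4.6, matplotlib 3.10.9 and scipy 1.17.1.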

Additional observations from a re-analysis of the deposited data

How the results depend on the processing

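Psme4 was called lower under every setting run except the dye direction, with neither array turned, where 0 genes were higher and 0 lower. Its mean log2 ratio was between -0.85 and -0.70. By the unadjusted p of limma's moderated test, 2 genes were higher and 2 lower, and with the methods' t-test 1 higher and 1 lower. With probes in place of genes, 1 was higher and 3 lower. With each array alone, 2 to 2 genes were called higher and 1 to 2 lower, the median log2 ratio of the proteasome genes was 0.053 to 0.080, and the inducible minus constitutive difference was -0.22 to -0.18. Under limma ratios, no background correction, the series table, the filters and all probes, no count changed. For the 20 genes named by rule, 164 recomputed values kept direction and call, 6 also kept them but moved by more than the spread between arrays, 5 passed the threshold where they had not, and 5 changed sign, all of genes not called. With each array alone, Psmb7 ranged from -0.10 to 0.38, Psmb9 from -0.16 to 0.027, Psme2 from -0.11 to 0.22 and Psme3 from -0.22 to 0.23, and Psmd10 was 0.029 with limma ratios; the cause was not tested. Chosen after seeing the data, limma ratios gave an inducible minus constitutive difference of -0.054 on array 1 and -0.24 on array 2, and loess without background correction gave -0.097 and -0.26. Each array pairs the genotypes, so every ratio, and limma's test on the ratios, is already paired within an array. The methods' t-test of channel values was unpaired. No further replicate block was fitted because the labels do not tie mice across arrays.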

Other observations

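Proteasome genes that the arrays list under older names fell outside the rule, and were found through RefSeq accessions after the other values were seen. Psmg1, a chaperone that starts the assembly of the alpha ring and is listed as Dscr2, had WT and *Gde5* skKO signals of 403 and 531 on array 1 and of 350.1 and 457 on array 2. Both knockout signals were above both WT signals. Its log2 ratios were 0.40 and 0.38 with Feature Extraction p-values of 0.0586 and 0.0714, just short of the threshold on both arrays. Psmg2, its partner, had ratios of 0.14 and 0.14 on its brighter probe and 0.17 and -0.02 on the other. Psmg3, a chaperone of the same step, had -0.02 and -0.02. Psmb11, the thymus form of the catalytic subunit, was not well above background in any channel.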
